A study of Mus musculus with 8 samples.

Results

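The 36 transcripts described here belong to the antiviral interferon-stimulated genes, a set that cells turn on when they sense type I interferon. They were chosen by name from a list of such genes, with a gene kept if at least 1 of its probes was well above background on 2 or more of 8 arrays. All 36 passed, out of 20235 genes tested in all, and each was well above background on all 8 arrays. They were followed in RAW264.7, a mouse macrophage cell line, in cultures that received melatonin (1 mM for 1 h) or none before lipopolysaccharide (LPS, 100 ng/ml, from Escherichia coli). LPS comes from the outer membrane of Gram-negative bacteria, and macrophages detect it through Toll-like receptor 4. Each arm was sampled without LPS (0 h) and after 1, 3 and 5 h of LPS, on 1 array per condition and so 4 arrays per arm. The 0 h culture with melatonin received melatonin but no LPS. RAW264.7 is a single transformed line, and the labels do not say whether the 8 samples came from separate experiments. No condition was repeated, so the spread behind each p-value is how far the arrays depart from the fitted model. That departure may be technical or an effect that the model leaves out.

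As background, LPS makes macrophages transcribe interferon-beta through the adaptor TRIF, the kinase TBK1 and the factor IRF3. Secreted interferon-beta binds the receptor IFNAR on the same and neighbouring cells and activates transcription factors, STAT2 and IRF9 among them, that bind interferon-stimulated response elements (ISREs) in the promoters of these genes. Some of them can also be turned on directly by IRF3, before any interferon has acted. Their products bind or cut viral RNA, modify proteins with ISG15, block viral entry or budding, and sense nucleic acid.

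To show the response element, 5 promoters that hold it are printed here, chosen to include members with large changes (Ifit1, Ifit3, Isg15 and Rsad2) and the one with the smallest rise at 3 and 5 h without melatonin (Bst2). The sequences are the 160 bases before the transcript start, on the gene's strand, from RefSeq on GRCm38.p6. Capitals mark the ISRE core, searched as GAAA, any 2 bases and GAAA on both strands, where the reverse reads TTTC, any 2 bases and TTTC.
Ifit1: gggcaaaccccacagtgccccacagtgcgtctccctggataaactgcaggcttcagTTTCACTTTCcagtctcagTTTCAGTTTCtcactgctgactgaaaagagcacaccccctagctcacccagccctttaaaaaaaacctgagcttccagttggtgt
Ifit3: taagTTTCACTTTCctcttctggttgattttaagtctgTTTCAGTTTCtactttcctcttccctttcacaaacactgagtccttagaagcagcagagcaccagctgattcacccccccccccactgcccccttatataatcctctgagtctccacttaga
Isg15: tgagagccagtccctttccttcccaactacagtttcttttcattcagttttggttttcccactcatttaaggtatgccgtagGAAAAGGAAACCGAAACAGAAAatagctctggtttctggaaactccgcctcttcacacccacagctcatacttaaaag
Rsad2: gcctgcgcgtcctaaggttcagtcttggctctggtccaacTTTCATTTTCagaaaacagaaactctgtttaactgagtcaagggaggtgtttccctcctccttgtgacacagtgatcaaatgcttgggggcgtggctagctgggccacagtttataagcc
Bst2: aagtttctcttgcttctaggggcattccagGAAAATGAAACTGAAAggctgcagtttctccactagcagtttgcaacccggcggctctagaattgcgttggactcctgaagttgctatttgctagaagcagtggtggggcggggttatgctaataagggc
They lie at chr19:34640729-34640888 (Ifit1), chr19:34583369-34583528 (Ifit3), chr4:156200819-156200978 (Isg15), chr12:26456453-26456612 (Rsad2) and chr8:71537473-71537632 (Bst2), the last 3 on the minus strand. Ifit1 and Ifit3 each hold 2 separate cores, Isg15 holds 3 that overlap between -78 and -57, Rsad2 holds 1, and Bst2 holds 2 that overlap between -130 and -115.

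A promoter window, from 250 bases before to 50 after the start, was listed for 26 of the 36 members and not for Ifi204, Zbp1, Mx2, Parp14, Parp9, Usp18, Mx1, Rtp4, Oas2 and Dhx58. The ISRE core was in 12 of the 26 (46.2%), against 3.99% of 27025 genes and 3.44% of 32851 promoters of the same length. The 12 were Bst2, Ddx58, Eif2ak2, Ifih1, Ifit1, Ifit3, Isg15, Oas1a, Oas3, Rsad2, Trim21 and Trim30a. The STAT palindrome TTCNNNGAA was in 7 of 26 (26.9%), against 9.55% of genes and 8.30% of promoters, namely in Adar, Bst2, Eif2ak2, Ifi35, Ifit2, Isg20 and Oas1a. In Bst2 the palindrome, from -136 to -128, overlapped the first ISRE core. An NF-kB site (GGGA, any base, TTTCC) was in 0 of 26, against 0.466% of genes and 0.411% of promoters. A match is a description of the letters and not a shown binding site, and no match says only that these letters are not in this window.

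The share of probes well above background ran from 46.97% to 52.98%, and the 75th percentile of the processed signal lay between 646.7 and 828.0, so the arrays were of similar brightness. All levels below are log2 processed signal minus the array's 75th percentile, and 1 log2 is a doubling. The melatonin arm lay in 1 slide row and each LPS time in 1 slide column, so melatonin cannot be told apart from slide row, nor LPS from slide column or from hours in culture. The groups follow the sample titles. The treatment field of the labels puts 3 of the 4 melatonin samples 1 LPS time later and has no entry for the fourth, titled 5 h, so values under those times are given where they change a result. Macrophage markers were above background in 7 of 7 cases, and none of 2 NK cell and 3 epithelial markers was. Of 4 fibroblast, 3 T cell and 3 B cell markers, 2, 2 and 1 were above background, with summed linear levels of at most 0.191, 1.94 and 0.066 times the 75th percentile. Siglech, of 2 plasmacytoid dendritic cell markers, was between 7.30 and 7.60 on all arrays, and Ccr9 was above background on 2. The summed linear level of the 7 macrophage markers went through 983, 963, 821 and 659 over the 4 times in the arm without melatonin, and through 868, 818, 656 and 587 in the arm with it. Single markers differed: at 5 h without melatonin 4 of the 7 were above 0 h (Adgre1 by 1.72 log2) and 3 below (Csf1r at -1.74), and with melatonin 7 of 7 were lower than without at 3 h and 6 of 7 at 5 h, Csf1r being 0.49 higher. Their part in the differences below was not tested, and in bulk RNA fewer cells of a type and less RNA per cell cannot be told apart.

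Without melatonin the antiviral genes were high at 3 h of LPS and at a like level at 5 h, and with melatonin they were lower at 3 h and higher at 5 h than at 3 h. At 3 h without melatonin all 36 members were above their own 0 h array, by a median of 2.24 log2 (lowest 0.34, highest 8.86), where the median of all genes was 0.05. With melatonin 26 of 36 were above it at 3 h, by a median of 0.33 (lowest -0.61, highest 5.79). At 5 h the medians were 2.33 without and 1.27 with melatonin, and all 36 were above 0 h in both arms. A rise of at least 1 log2 was reached at 1, 3 and 5 h by 4, 30 and 33 of 36 members without melatonin, against 3.71%, 8.44% and 9.71% of all genes. With melatonin it was reached by 0, 12 and 24 of 36, against 3.06%, 6.19% and 7.59% of all genes. These are values of single arrays, from each gene's brightest probe, with no test.

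**Figure D1:**
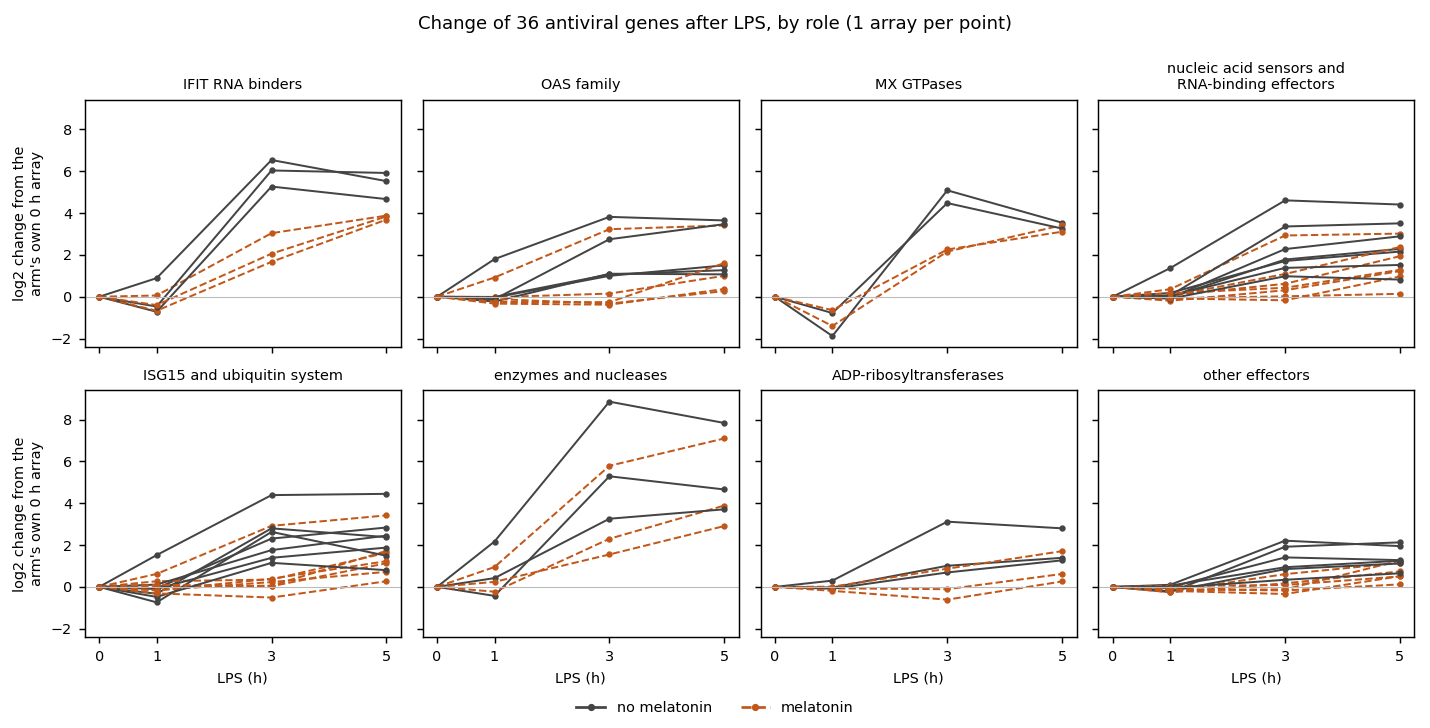
Change of each of the 36 genes from its arm's own 0 h array (vertical axis, log2) against hours of LPS (horizontal axis), in 8 panels by role, with solid dark lines for no melatonin, dashed orange lines for melatonin, and each point 1 array. The dark lines climb between 1 and 3 h, and from 3 to 5 h 19 go up and 17 down (from -1.54 to 0.72 log2). The orange lines are lower at 3 h, 10 of them below 0, and all 36 are higher at 5 h than at 3 h (by 0.09 to 2.02).

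The LPS change itself was tested over both arms, as 2 arrays of a time against the 2 arrays of 0 h in an additive limma model of time and melatonin. At an adjusted p under 0.05, members raised numbered 1 of 36 at 1 h (1.61% of all genes), 16 at 3 h (18.0%) and 27 at 5 h (24.8%), and none was lowered. Of all calls, 54.3% at 3 h and 56.3% at 5 h were rises, or 42.5% and 43.3% with quantile normalization and 43.0% and 43.7% in the authors' deposited table, and the 3 h change of Bst2 changed sign under both. Leaving out the 0, 3 or 5 h array of the melatonin-free arm gave 3 h counts of 5, 10 and 10, and leaving out the 3 or 5 h array of the melatonin arm gave 25 and 10. For the 5 h count, leaving out the 0 or 5 h array of the melatonin-free arm gave 7 and 9, and leaving out the 5 h array of the melatonin arm gave 15. Under the times of the treatment field 0 members were called at any time. Under every other alternative the calls of Ifih1, Ifit1, Isg15, Oasl1 and Rsad2 held at 3 and 5 h, and those of Cmpk2 and Isg20 at 5 h. All other calls, 11 at 3 h and 20 at 5 h, ended when the melatonin-free 0 h array was left out.

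Melatonin was tested as the mean difference over the 3 and 5 h arrays, in a limma model that gave the 0 and 1 h arrays a melatonin term of their own. Its residual spread comes from how far the differences at 3 and 5 h, and those at 0 and 1 h, disagree. Calls therefore favour a steady difference over a waning one. Trim25, at -1.22 at 3 h and at 5 h, had an SE of 0.04, and Ifit2, at -3.39 and -0.77, had 0.55. Of the 36 members 31 were lower with melatonin at 3 and 5 h at an adjusted p under 0.05, against 23.8% of all genes, and none was higher. The other 5 were Oasl1, Mx1, Mx2, Trim21 and Rsad2. Of all calls of this difference 42.7% were higher with melatonin, or 56.1% with quantile normalization and 55.8% in the authors' deposited table, with 28 members lower in each. The count was 19 with no filter on dim probes, 19 with no intensity trend and 16 under the times of the treatment field. Without any 1 array it ran from 26 to 34. The calls of Ddx58, Dhx58, Ifi204, Ifi44, Isg20, Oasl2, Trim25, Trim30a, Usp18 and Zbp1 held under every alternative tried. Some alternatives are weak checks. The treatment field's times set the melatonin array titled 1 h against 3 h without melatonin. A gene that rises between 1 and 3 h is then lower whether or not melatonin acts. Leaving out a 3 or 5 h array leaves only the difference at the other time. Over all 4 times together only 4 members were called lower (25.5% of all genes), namely Ifih1, Isg20, Parp12 and Zbp1. Leaving out either array of 0, 1, 3 or 5 h gave counts of 10, 2, 1 and 0, the same for both arms, and the 6 LPS arrays alone gave 10. In this model the array left at a time is taken up by its time term. The melatonin estimate is then the same whichever arm loses its array, so the arms are not separate checks. Calls higher with melatonin were 37.2% of all calls in that comparison, 52.4% with quantile normalization and 52.2% in the authors' deposited table.

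The IFIT proteins bind viral RNA that lacks the cap marks of host messengers. In log2 levels at 0, 1, 3 and 5 h, Ifit1 stood at -1.56, -0.68, 4.97 and 3.96 without melatonin and -0.91, -0.85, 2.14 and 2.97 with it. Ifit2, at the same times, stood at -1.54, -2.25, 3.73 and 3.14 without melatonin and -1.33, -2.0, 0.34 and 2.36 with it. Ifit3 stood at -1.87, -2.34, 4.17 and 4.05 without melatonin and -1.26, -1.66, 0.80 and 2.58 with it. All 3 were high on the 3 and 5 h arrays without melatonin, at an intermediate level on the 3 h array with it, and the 5 h array with melatonin stayed below the 3 h array without. At 3 h the no-melatonin array was 7.14-fold, 10.5-fold and 10.4-fold the melatonin array for Ifit1, Ifit2 and Ifit3, and at 5 h 1.99-fold, 1.71-fold and 2.76-fold. All 3 were called raised at 3 and 5 h, with a 5 h change of 4.70 (SE 0.76, adjusted p = 0.00511), 4.18 (SE 0.87, adjusted p = 0.0117) and 4.88 (SE 0.98, adjusted p = 0.0104) by limma. All 3 were lower with melatonin at 3 and 5 h, by 1.91 (SE 0.43, adjusted p = 0.0173), 2.08 (SE 0.55, adjusted p = 0.029) and 2.42 log2 (SE 0.40, adjusted p = 0.00709). The call of Ifit1 ended without either 3 h array, where only its 5 h difference of -0.99 was left. The probes of Ifit1 and Ifit3 lie on mm9 at chr19:34723827-34723886 and chr19:34663105-34663164, in 1 gene cluster with Ifit2.

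The OAS enzymes make oligoadenylates that switch on RNase L, and Oasl1 and Oasl2 are OAS-like proteins, of which Oasl1 is a brake on IRF7 translation. Oas1a stood at 6.11, 6.11, 7.19 and 7.38 without melatonin and 5.99, 5.97, 6.14 and 7.0 with it. Oas2 stood at 4.94, 4.72, 6.04 and 6.02 without melatonin and 5.13, 4.8, 4.76 and 5.51 with it. Oas3 stood at 1.52, 1.48, 2.51 and 3.01 without melatonin and 1.63, 1.52, 1.29 and 1.90 with it. These 3 were 1.00 to 1.1 log2 above 0 h on the 3 h array without melatonin, while with it Oas2 and Oas3 were below their own 0 h array at 3 h and Oas1a 0.15 above it. Oasl1 stood at 4.94, 6.74, 8.76 and 8.59 without melatonin and 4.93, 5.85, 8.15 and 8.34 with it. It was already 1.80 log2 up at 1 h without melatonin and 0.92 with it, and the arms then drew close, 1.52-fold higher without melatonin at 3 h and 1.19-fold at 5 h. Oasl2 stood at 0.60, 0.48, 3.35 and 4.07 without melatonin and 0.62, 0.37, 0.36 and 2.23 with it, flat to 3 h with melatonin and up only at 5 h, where it was 3.57-fold higher without melatonin. At 3 h only Oasl1 was called raised (3.52, SE 0.20, adjusted p = 0.000416), and it was also the single member called at 1 h (1.36, SE 0.20, adjusted p = 0.0359, lost under 9 of 17 alternatives). At 5 h Oas1a (1.14, SE 0.22, adjusted p = 0.00952), Oasl1 and Oasl2 (2.54, SE 0.73, adjusted p = 0.0349) were called. With melatonin Oasl2 was lower at 3 and 5 h by 2.41 (SE 0.25, adjusted p = 0.00212), Oas3 by 1.17 (SE 0.08, adjusted p = 0.00117), Oas2 by 0.89 and Oas1a by 0.72. Oasl1 had a difference of -0.43 (SE 0.20, adjusted p = 0.14). The near-identical genes beside Oas1a could share its probe, which was not tested.

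Mx1 and Mx2 are dynamin-like GTPases that trap viral components. Mx1 stood at -0.78, -2.66, 4.31 and 2.77 without melatonin and -0.32, -1.72, 1.83 and 3.09 with it. Mx2 stood at 0.76, -0.02, 5.24 and 4.03 without melatonin and 1.26, 0.62, 3.52 and 4.38 with it. Both dipped at 1 h in each arm, peaked at 3 h without melatonin and were 1.54 and 1.22 log2 below that peak at 5 h. With melatonin they were still climbing at 5 h and ended 0.32 and 0.35 log2 above the 5 h array without it, so the arms crossed. Both were called raised at 5 h, Mx1 by 3.48 (SE 0.78, adjusted p = 0.0154) and Mx2 by 3.19 (SE 0.57, adjusted p = 0.00703). Their melatonin difference at 3 and 5 h was -1.08 (SE 0.60, adjusted p = 0.194) and -0.68 (SE 0.44, adjusted p = 0.251), and it had the opposite sign without either 3 h array, which leaves the 5 h values above. Many laboratory mouse strains carry defective Mx genes, and the array reports transcript only.

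Of 7 sensors and RNA-binding effectors, 4 were called raised at 3 h (Ifih1, Zbp1, Ifi204, Eif2ak2), these and Ddx58 and Dhx58 at 5 h, and all 7 were lower with melatonin at 3 and 5 h. Ddx58 (RIG-I), a sensor of viral RNA ends, stood at 3.59, 3.77, 5.30 and 5.75 without melatonin and 3.86, 3.78, 3.70 and 4.83 with it. Ifih1 (MDA5), the sensor of long double-stranded RNA, stood at 0.90, 2.27, 5.52 and 5.31 without melatonin and 1.07, 1.43, 4.0 and 4.08 with it. Dhx58 (LGP2), which modulates both, stood at 1.65, 1.62, 3.44 and 3.95 without melatonin and 1.58, 1.39, 1.89 and 2.81 with it. On its brightest probe Ifih1 was up at 1 h without melatonin and at 3 h with it. It moved there by -0.20 and 0.09 log2 from 3 to 5 h without and with melatonin. A dimmer probe of Ifih1 stood at -3.68, -0.35, 0.72 and -1.01 without melatonin and -3.73, -1.60, -0.75 and -1.72 with it. That probe was thus up at 1 h in both arms and lower at 5 h than at 3 h. On their brightest probes Ddx58 and Dhx58 with melatonin had not left their starting level by more than 0.31 log2 at 3 h. Zbp1, a sensor of Z-form nucleic acid, stood at 0.70, 0.65, 2.98 and 3.59 without melatonin and 0.05, 0.11, 0.67 and 1.99 with it. Ifi204, a sensor of DNA in the HIN-200 family, stood at 2.77, 2.83, 6.13 and 6.28 without melatonin and 2.55, 2.57, 3.63 and 4.93 with it. On these probes both were lower on the melatonin array at all 4 times, Zbp1 by 0.65 log2 before any LPS. A dimmer probe of Zbp1 was higher with melatonin at 0 h (-2.77 against -3.41) and at 1 h (-2.68 against -3.53). It was lower with melatonin at 3 and 5 h, and a dimmer probe of Ifi204 was lower at all 4 times. Eif2ak2 (PKR), the kinase that stops translation on double-stranded RNA, stood at 2.49, 2.53, 3.88 and 4.01 without melatonin and 2.25, 2.42, 2.68 and 3.54 with it. Adar, which edits double-stranded RNA, stood at 2.65, 2.55, 3.63 and 3.47 without melatonin and 2.80, 2.73, 2.82 and 2.94 with it, with no call for LPS (5 h change 0.48, SE 0.26, adjusted p = 0.185). A dimmer probe of Adar rose more, from 1.12, 1.13, 2.48 and 2.66 without melatonin to 1.25, 1.15, 1.46 and 2.27 with it. The melatonin difference at 3 and 5 h was -1.96 for Zbp1 (SE 0.17, adjusted p = 0.0015), -1.92 for Ifi204 (SE 0.25, adjusted p = 0.00338) and -1.37 for Ifih1 (SE 0.23, adjusted p = 0.00687). It was -1.34 for Dhx58, -1.26 for Ddx58, -0.83 for Eif2ak2 and -0.67 for Adar. Related genes of the Ifi204 family could share its probe, which was not tested. The call of Ifih1 ended without either 3 h array.

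Isg15 is a ubiquitin-like modifier, Usp18 removes it and damps the receptor, and Herc6 is its ligase in mice. Isg15 stood at 3.75, 5.27, 8.15 and 8.2 without melatonin and 4.05, 4.67, 6.98 and 7.47 with it. Usp18 stood at 3.60, 3.52, 5.91 and 6.44 without melatonin and 3.61, 3.60, 3.67 and 5.33 with it. Herc6 stood at -2.49, -2.82, 0.31 and -0.11 without melatonin and -2.39, -2.12, -2.04 and -0.76 with it. Isg15 was up by 1 h without melatonin, and at 3 h it was 2.25-fold higher without melatonin than with it, while Usp18 with melatonin stayed at its 0 h level to 3 h and was 4.71-fold higher there without melatonin. Trim25, a ligase that activates RIG-I, stood at 5.92, 5.81, 7.30 and 7.80 without melatonin and 5.86, 5.70, 6.09 and 6.58 with it. Trim30a, a feedback regulator of Toll-like receptor signalling, stood at 1.22, 1.33, 2.99 and 3.67 without melatonin and 1.28, 1.38, 1.32 and 2.41 with it. Dtx3l, the ligase partner of Parp9, stood at 1.89, 1.40, 3.04 and 2.69 without melatonin and 2.18, 1.87, 1.67 and 2.45 with it. On the melatonin arrays the brightest probes of these 3 were within 0.51 log2 of 0 h at 3 h. Dimmer probes of Trim30a were 1.21 and 0.13 above it, those of Trim25 0.64 and 0.25, and that of Dtx3l 0.02. Trim21, an antibody receptor inside cells, was outside the rule for full values and is given because it crossed over like the Mx genes: it stood at -1.09, -1.83, 1.54 and 0.40 without melatonin and -0.66, -0.84, -0.27 and 0.57 with it. Isg15 was raised at 3 h (3.66, SE 0.31, adjusted p = 0.00122) and at 5 h (3.93, SE 0.31, adjusted p = 0.000619), and Usp18, Trim25 and Trim30a at 5 h only, by 2.28 (SE 0.55, adjusted p = 0.0198), 1.30 and 1.79. Apart from Trim21, all genes of this set were lower with melatonin at 3 and 5 h. They were Usp18 by 1.67 (SE 0.24, adjusted p = 0.00468), Trim30a by 1.47 (SE 0.11, adjusted p = 0.00129) and Trim25 by 1.22 (SE 0.04, adjusted p = 0.000752), with 3 others. Herc6 was lower by 1.5, Isg15 by 0.95 and Dtx3l by 0.80 (SE 0.25, adjusted p = 0.046). The call of Isg15 ended without any 1 of the 3 and 5 h arrays, that of Herc6 without either 3 h array, and that of Dtx3l under 13 of 17 alternatives. Trim21 had a difference of -0.82 (SE 0.44, adjusted p = 0.181), 0.17 without either 3 h array.

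Rsad2 (viperin) makes a nucleotide that ends viral RNA chains, Cmpk2, its neighbour in the genome, is a nucleotide kinase, and Isg20 is an exonuclease of single-stranded RNA. Rsad2 stood at -1.71, 0.45, 7.15 and 6.13 without melatonin and -1.03, -0.08, 4.76 and 6.07 with it. Cmpk2 stood at 0.49, 0.06, 5.78 and 5.15 without melatonin and 0.68, 0.44, 2.98 and 4.57 with it. Isg20 stood at 2.57, 2.98, 5.83 and 6.28 without melatonin and 1.89, 2.13, 3.44 and 4.8 with it. Rsad2 had the largest rise of all members, 465-fold at 3 h without melatonin and 55.2-fold with it, and by 5 h the arms were close (229-fold and 137-fold over their own 0 h arrays, and 6.13 against 6.07 in level). Cmpk2, whose probe on mm9 lies at chr12:27164134-27164193 near that of Rsad2 at chr12:27127859-27127918, had 6.96-fold more signal without melatonin at 3 h and 1.5-fold at 5 h. Isg20 stayed lower with melatonin at all 4 times, already by 0.68 log2 at 0 h. All 3 were raised at 3 and 5 h, with 5 h changes of 7.47 for Rsad2 (SE 0.66, adjusted p = 0.000838), 4.27 for Cmpk2 (SE 0.74, adjusted p = 0.0065) and 3.31 for Isg20 (SE 0.39, adjusted p = 0.002). Lower with melatonin at 3 and 5 h were Isg20 by 1.93 (SE 0.20, adjusted p = 0.00211) and Cmpk2 by 1.69 (SE 0.47, adjusted p = 0.0333), the latter lost under 5 of 17 alternatives, quantile normalization among them. Rsad2 had a difference of -1.22 (SE 0.55, adjusted p = 0.126).

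The ADP-ribosyltransferases of the group take part in antiviral defence, and Parp9 pairs with Dtx3l. Parp9 stood at 2.43, 2.40, 3.45 and 3.82 without melatonin and 2.58, 2.52, 2.47 and 3.20 with it. Parp12 stood at 0.99, 0.90, 1.67 and 2.25 without melatonin and 0.82, 0.63, 0.22 and 1.09 with it. Parp14 stood at 2.51, 2.81, 5.63 and 5.30 without melatonin and 2.88, 2.89, 3.75 and 4.58 with it. Parp14 was up at 3 h in both arms, less with melatonin, whereas Parp9 and Parp12 were below their 0 h level at 3 h with melatonin, although a dimmer probe of each was above it, by 0.35 and 0.50. Parp14 was raised at 3 h (2.0, SE 0.51, adjusted p = 0.0305) and at 5 h, and Parp9 at 5 h (1.00, SE 0.29, adjusted p = 0.0348). All 3 were lower with melatonin at 3 and 5 h, Parp12 by 1.31 (SE 0.10, adjusted p = 0.00129), Parp14 by 1.30 (SE 0.26, adjusted p = 0.0117) and Parp9 by 0.80 (SE 0.10, adjusted p = 0.00309).

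The remaining effectors are of mixed function: Samd9l restrains translation, Xaf1 promotes cell death, and Bst2 (tetherin) holds budding virions at the membrane. Samd9l stood at 1.95, 2.05, 4.15 and 3.90 without melatonin and 1.92, 1.72, 2.53 and 3.07 with it. Xaf1 stood at 1.76, 1.51, 3.68 and 3.89 without melatonin and 1.87, 1.72, 1.75 and 3.13 with it. Both were high at 3 and 5 h without melatonin, and with it Xaf1 on its brightest probe did not leave its 0 h level until 5 h. With melatonin a dimmer probe of Xaf1 stood at -1.59 at 0 h and still at -1.53 at 5 h. Another, above background on 3 arrays, was 0.54 above 0 h at 3 h. Ifi44 stood at 4.07, 3.86, 4.92 and 5.19 without melatonin and 3.91, 3.72, 3.58 and 4.42 with it. Ifi35, which binds other interferon-induced proteins, stood at 4.56, 4.61, 5.49 and 5.81 without melatonin and 4.94, 4.98, 5.03 and 5.44 with it. Rtp4, a receptor transport protein that also binds viral RNA, stood at 4.79, 4.78, 6.20 and 6.07 without melatonin and 4.88, 4.61, 5.05 and 5.62 with it. These 3 were 0.85 to 1.41 log2 above 0 h at 3 h without melatonin and at most 0.17 above it with melatonin, although a dimmer probe of Ifi44 was 1.77 above it with melatonin and 2.54 without. Bst2 stood at 5.31, 5.26, 5.66 and 5.97 without melatonin and 5.27, 5.16, 5.10 and 5.39 with it and had the smallest rise of all 36 in either arm at 5 h, although its promoter holds the response element printed above. Raised at 5 h were Xaf1 (1.70, SE 0.50, adjusted p = 0.0382), Samd9l (1.55, SE 0.36, adjusted p = 0.0168), Rtp4 (1.01, SE 0.27, adjusted p = 0.0283) and Ifi35 (0.87, SE 0.24, adjusted p = 0.0279). Ifi44 and Bst2 were not called (0.81, adjusted p = 0.0703, and 0.38, adjusted p = 0.0891, by limma). All 6 were lower with melatonin at 3 and 5 h, from Xaf1 (1.34) and Samd9l (1.22) to Bst2 (0.57, SE 0.05, adjusted p = 0.00156) and Ifi35 (0.41, SE 0.05, adjusted p = 0.0036). Among the 12 members with an ISRE core in the window, the 3 h rise without melatonin ran from 0.34 (Bst2) to 8.86 (Rsad2), and Ifit2 and Cmpk2, with no core in theirs, were 5.27 and 5.29 log2 above 0 h.

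**Figure D2:**
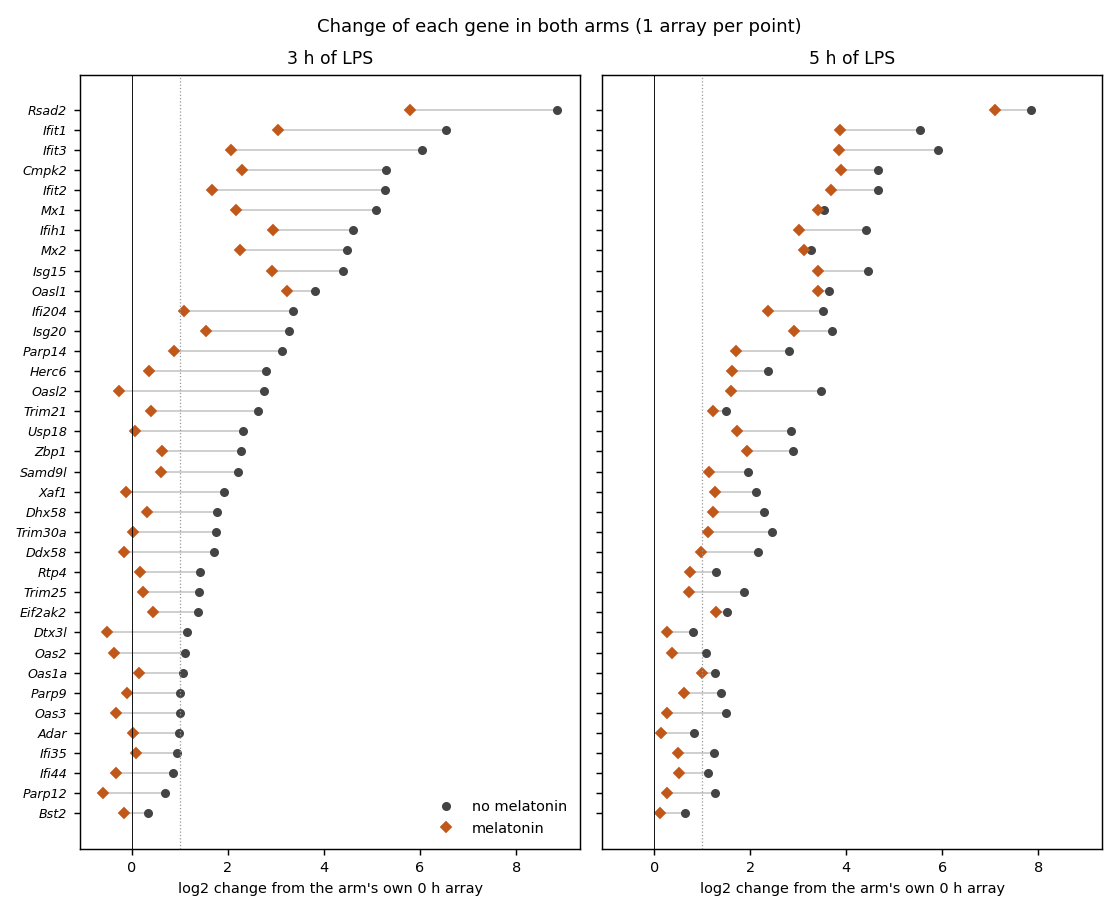
Change from the arm's own 0 h array (horizontal axis, log2) for each of the 36 genes (rows, in order of the 3 h change without melatonin) at 3 h (left) and 5 h (right), with dark circles for no melatonin and orange diamonds for melatonin, each 1 array. A dotted line marks 1 log2, and 30 dark points and 12 orange ones reach it at 3 h, 33 and 24 at 5 h.

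On timing, read from each gene's brightest probe, no member reached 1 log2 earlier with melatonin. Without melatonin 4 members reached it at 1 h (Isg15, Oasl1, Ifih1, Rsad2), 26 first at 3 h and 4 first at 5 h (Oas3, Parp12, Ifi44, Ifi35). With melatonin 0 reached it at 1 h, 12 at 3 h and 12 first at 5 h. On a dimmer probe, however, Ifih1 went from -3.73 at 0 h to -1.60 at 1 h with melatonin, and from -3.68 to -0.35 without. Set side by side, 16 members reached it later with melatonin, 10 only without it, 8 at the same sampled time (Ifit1, Ifit2, Ifit3, Mx1, Mx2, Ifi204, Cmpk2, Isg20) and 2 in neither arm (Adar, Bst2). Other probes can change these classes. At 3 h with melatonin, dimmer probes of Ifi44 (1.77), Parp14 (1.23), Trim30a (1.21) and Zbp1 (1.20) had passed 1 log2. Another dimmer probe of Trim30a (0.13) and those of Adar, Ddx58, Dhx58, Dtx3l, Ifi35, Oas2, Parp9, Parp12, Trim25 and Xaf1 had not. A dimmer probe of Adar was 1.36 above 0 h at 3 h without melatonin. With melatonin a dimmer probe of Xaf1 went only from -1.59 at 0 h to -1.53 at 5 h. Members within 0.05 log2 of the threshold were Oas3 (1.00), Parp9 (1.01) and Adar (0.98) at 3 h without melatonin, and Oas1a (1.00) and Ddx58 (0.97) at 5 h with it. Under the times of the treatment field the melatonin arm has no 0 h array, so neither these times nor the proportions that follow can be given for it. At 1 h the 4 early members were above 0 h by 1.52 (Isg15), 1.80 (Oasl1), 1.37 (Ifih1) and 2.17 (Rsad2) without melatonin and by 0.62, 0.92, 0.36 and 0.95 with it. Their 1 h levels were 0.60, 0.89, 0.85 and 0.53 log2 lower with melatonin, when the other 32 had not reached 1 log2 in either arm.

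The proportion of the 5 h rise already reached at 3 h, both in log2, was taken for the 24 members with at least 1 log2 at 5 h in both arms. It is not a share of the signal. Rsad2 with melatonin, at 81.5% in log2, was 55.2-fold above 0 h at 3 h and 137-fold at 5 h. Without melatonin it had a median of 103% (lowest 72.0%, Trim30a, highest 177%, Trim21). With melatonin the median was 48.4% (lowest -16.2%, Oasl2, highest 97.1%, Ifih1), and it was lower with melatonin in 24 of 24. Of 1151 genes with such a rise in both arms 71.2% had the lower value with melatonin, with medians of 92.3% and 80.4%. With melatonin all 36 members were higher at 5 h than at 3 h on their brightest probe, while without it 19 were higher and 17 lower. Among dimmer probes with melatonin, those of Ifih1 (-0.75 to -1.72) and Ifi44 (1.48 to 1.44) were lower at 5 h, and the others were higher. In all 36 the 5 h level with melatonin was below the 3 h level without it, as in 57.8% of all genes.

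At 0 and 1 h the members lay on both sides of 0 in the comparison of the arms. The difference of melatonin minus none had a median of 0.11 log2 at 0 h (12 of 36 lower, from -0.68 to 0.68) and -0.05 at 1 h (18 lower, from -0.89 to 1.00), where all genes had medians of -0.08 and -0.10. At 3 h it was -1.61 (36 of 36 lower, from -3.39 for Ifit2 to -0.46 for Ifi35), and all genes had -0.11. At 5 h it was -0.74 (33 lower, from -1.84 for Oasl2 to 0.35 for Mx2), and all genes had -0.09. With quantile normalization the medians of the members were 0.18, 0.11, -1.41 and -0.57 and those of all genes -0.01 at each time, with 36 lower at 3 h and 32 at 5 h. At least 1 log2 lower with melatonin were 31 of 36 at 3 h (5.53% of all genes) and 12 at 5 h (4.84%). Under the times of the treatment field, which set the melatonin array titled 1 h against 3 h and that titled 3 h against 5 h, they numbered 31 and 29. Of the 64 probes of the members, all above background on at least 2 arrays, 64 were lower with melatonin at 3 h and 55 at 5 h. The 7 macrophage markers ran from -1.59 (Fcgr1, an Fc receptor) to -0.03 (Csf1r, the receptor for the growth factor of macrophages) in this difference at 3 h.

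**Figure D3:**
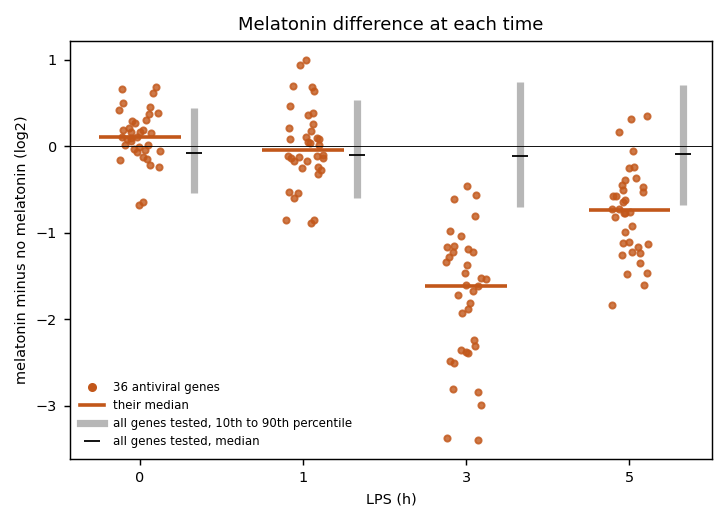
Melatonin minus no melatonin (vertical axis, log2) at each time of LPS (horizontal axis, h), with 1 orange point per gene, an orange bar at the median of the 36 genes, and grey bars for the 10th to 90th percentile and black ticks for the median of all genes tested. The points lie around 0 at 0 and 1 h, all below 0 at 3 h (median -1.61) and mostly below 0 at 5 h (median -0.74).

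Whether the difference was larger at 3 and 5 h than at 0 and 1 h was tested directly. It was lower at the late times in 5 members, Trim30a, Oas3, Trim25, Parp12 and Ifi35 (0.331% of all genes), by 1.52 (SE 0.16, adjusted p = 0.0345), 1.24 (SE 0.11, adjusted p = 0.0345), 1.13 (SE 0.06, adjusted p = 0.0236), 1.09 (SE 0.14, adjusted p = 0.0472) and 0.79 log2 (SE 0.08, adjusted p = 0.0345) by limma. The median over the 36 members was -1.21, where that of all genes was 0.01. For Ifit3, with a larger change of -3.07, the SE was 0.57 and the adjusted p 0.0752. The count is not stable. It was 0 when either 0 h array was left out, 1 for either 1 h array, 28 for either 5 h array, and at 3 h 19 for the melatonin-free array and 8 for the melatonin one. Of all calls 52.5% were higher, or 33.3% with quantile normalization and 20% in the authors' deposited table, with 1 member lower in each.

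Of 31 listed genes that make, carry or damp the interferon signal, 29 were measured. Ifnb1, interferon-beta, was not well above background on either 0 h array and stood at -6.84, 0.10, 3.17 and 2.47 without melatonin and -6.64, -4.17, -0.18 and -0.17 with it. Without melatonin it was at least 33.6-fold higher at 1 h, 282-fold at 3 h and 173-fold at 5 h than the lowest signal measurable at 0 h, and with melatonin at least 2.17-fold, 34.5-fold and 34.8-fold. Over both arms the 1 h change, at least 8.54-fold, was not called (limma adjusted p = 0.0895), and its level with melatonin minus that without was -4.27, -3.36 and -2.64 log2 at 1, 3 and 5 h. Over both arms it was raised at 3 h (at least 98.7-fold, limma adjusted p = 0.00305) and at 5 h (at least 77.6-fold, adjusted p = 0.00226). It was lower with melatonin over all times by 2.52 (SE 0.69, adjusted p = 0.0333), a call lost under 8 of 16 alternatives, and at 3 and 5 h by 3.00 (SE 0.95, adjusted p = 0.0492), lost under 11. Ifna2, Ifna5 and Ifnl3 were called in no comparison.

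Of the receptor and JAK-STAT genes, Stat2 stood at 2.09, 1.15, 3.34 and 3.1 without melatonin and 2.33, 1.87, 1.70 and 2.79 with it. Irf9, its DNA-binding partner, stood at 2.80, 2.59, 3.87 and 3.64 without melatonin and 2.88, 2.68, 3.30 and 3.62 with it. Both were highest on the arrays of 3 and 5 h without melatonin. With it Stat2 was below its 0 h level at 3 h and above it at 5 h. At 3 and 5 h Stat2 was lower with melatonin by 0.97 (SE 0.30, adjusted p = 0.0466, lost under 8 of 17 alternatives), and Irf9 had -0.30 (adjusted p = 0.119). Irf9 was raised at 5 h by 0.79 (SE 0.17, adjusted p = 0.0141), a call lost under the times of the treatment field. It was also lost when the 0 or 5 h array of the melatonin-free arm or the 5 h array of the melatonin arm was left out. Irf7, the factor that amplifies interferon, stood at 7.19, 7.15, 7.78 and 8.23 without melatonin and 7.17, 7.09, 7.06 and 7.51 with it. It was flat with melatonin until 5 h and lower at 3 and 5 h by 0.72 (SE 0.04, adjusted p = 0.00115). Irf8, a macrophage lineage factor, was lower by 1.53 (SE 0.10, adjusted p = 0.00117), a call that held under every alternative, and Irf3, which starts interferon transcription, was higher by 0.55 (SE 0.06, adjusted p = 0.00224). Irf1 stood at 1.58, 0.35, 3.31 and 1.01 without melatonin and 2.11, 1.67, 1.57 and 1.92 with it, with a peak at 3 h without melatonin and none with it, and no call. Ikbke, a kinase related to TBK1, was raised at 3 h by 4.18 (SE 0.29, adjusted p = 0.000725), and the adaptor gene Ticam1 (TRIF) by 2.28 (SE 0.22, adjusted p = 0.00162). Their melatonin differences at 3 and 5 h were -0.66 (SE 0.27, adjusted p = 0.103) and 0.06 (SE 0.18, adjusted p = 0.822). Tbk1 itself was lower with melatonin at 3 and 5 h by 0.65 (SE 0.09, adjusted p = 0.00452). Mavs, the adaptor of RIG-I and MDA5, was higher with melatonin by 1.03 (SE 0.13, adjusted p = 0.00297). It fell with LPS, by 0.97 at 3 h (SE 0.20, adjusted p = 0.0165), a call lost under the times of the treatment field. That call was also lost when the 0 or 3 h array of the melatonin-free arm was left out. Of the 29 genes 10 were lower and 3 higher with melatonin at 3 and 5 h, where 23.8% and 17.7% of all genes were. At 3 h of LPS 11 were raised and 2 lowered (18.0% and 15.1% of all genes), and at 5 h 14 and 2 (24.8% and 19.3%). Under the times of the treatment field none of these LPS calls held, those of Ifnb1, Ikbke and Ticam1 included. The melatonin calls of Irf7, Irf3, Mavs and Tbk1 at 3 and 5 h ended too (limma adjusted p = 0.0532, 0.0598, 0.0661 and 0.0645).

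**Figure D4:**
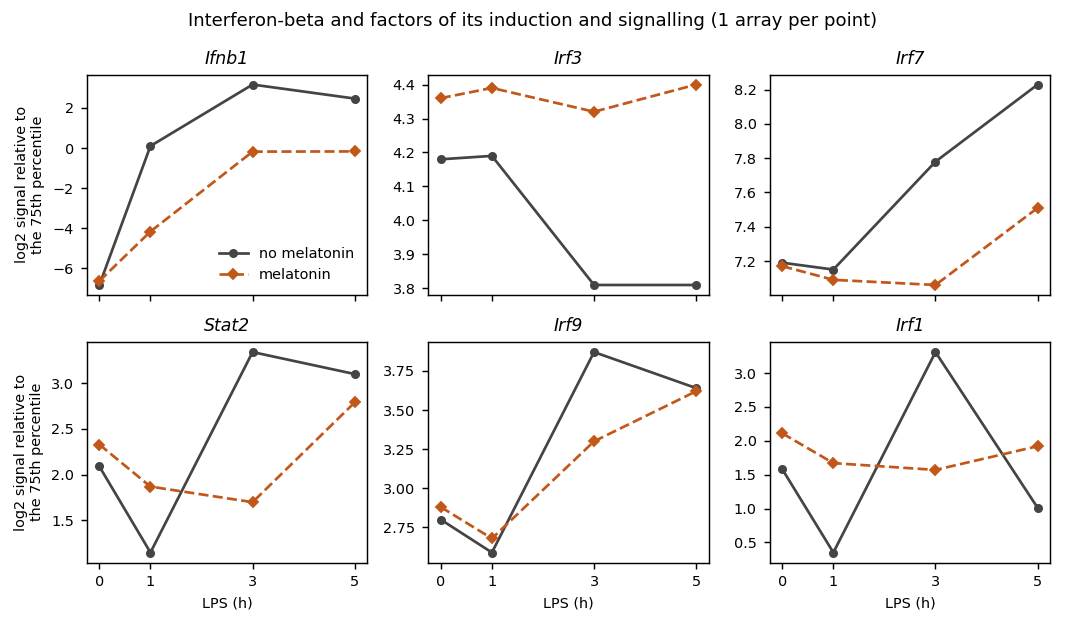
Level of Ifnb1 and 5 factors of its induction and signalling (vertical axis, log2 signal relative to the array's 75th percentile, with a scale of its own per panel) against hours of LPS (horizontal axis), with dark circles for no melatonin and orange diamonds for melatonin, each 1 array. Ifnb1, not well above background at 0 h, is lower with melatonin at 1, 3 and 5 h, and Stat2, Irf7 and Irf1 do not rise above their 0 h level at 3 h with melatonin.

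For comparison, all 10 early NF-kB targets, such as Tnf and Nfkbia, were raised at 1 h, by a median of 4.31 log2, when the members had a median of -0.06 and 1 of 36 was called. Their median difference with melatonin was -1.28 at 1 h, -1.05 at 3 h and -0.88 at 5 h, so it was lower at 1 h already, and 8 of 10 were called lower over all times, where 25.5% of all genes were. The 9 measured of 10 GBP and IRG GTPases, which are induced by interferon too, had median LPS changes of 0.01, 1.40 and 1.79 at 1, 3 and 5 h, close to the members' -0.06, 1.22 and 1.78. Their median melatonin difference was 0.18 at 1 h, -2.54 at 3 h and -1.19 at 5 h. Of those 9, 7 were called lower at 3 and 5 h (23.8% of all genes) and 2 over all times (25.5%). The difference between these lists and the 36 members was not tested.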

How the data were processed

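Total RNA of RAW264.7 cells was measured on 8 single-colour (Cy3) Agilent arrays. The intensity values are processed signals that Feature Extraction 12.0.3.1 wrote, per the file headers, with spatial detrending and surrogate values for dim spots switched on and background correction off. Other columns used are the deposited flags for spots well above background, saturated or outlying. The deposited log2 table of the series served as an alternative only; how it was made is not given in the files or labels used. Its correlation with the log2 of the scanner signal was at least 0.9992. It was not centred by gene, all its columns hold the same sorted values (median 5.31 in each), and its direction is that of the signal; the tool behind it is unknown. Mean and background intensity, as deposited in the scanner files, served the normexp alternative (offset 50).

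Of 62976 spots 3671 were controls, which were dropped together with outlier spots, and repeats of 1 probe were averaged (56605 probes). Values were log2 processed signal minus the array's 75th percentile. Symbols were updated through RefSeq accessions (32994 probes matched, 1535 changed, 10314 without a symbol). A probe entered if 2 or more of 8 arrays had it well above background (30432), and each gene was read from its brightest probe by mean (20235 genes). No spot was saturated. Probe positions are those of the files (mm9), and promoters are RefSeq on GRCm38.p6; no coordinates were converted.

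Fits used limma 3.58.1 in R 4.3.3, with data.table (1.17.8) for reading. The additive limma model of LPS time (4 levels) and melatonin left 3 residual degrees of freedom, and the model with early and late melatonin terms 2. Tests were 2-sided with an intensity trend, Benjamini-Hochberg adjusted over all genes and called under 0.05. In the additive model a melatonin effect that changes with time adds to the residual spread. In the model with early and late terms, a difference that changes between 3 and 5 h or between 0 and 1 h does so. Scripts were tested on simulated data. Values at 1 time in 1 arm have no test. An "at least" fold sets the level against the lowest signal well above background on the 0 h array. Values on every array are given for members called at 5 h or for melatonin, for those whose 5 h rise differed by 1 log2 between arms, and for the 4 highest and 4 lowest 5 h changes. The members, roles and lists were chosen with earlier results of these data known. Alternatives were quantile normalization, normexp, the deposited table, 2 other filters, a common floor for dim signals, no trend, the mean of probes, the treatment field's times, the LPS arrays alone and leaving out each array. No sample column was unmapped (0 unused). The number of arrays limits the precision. Of the listed pathway genes 1 is in the counts but is not reported here.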

Additional observations from a re-analysis of the deposited data

Results flagged for a closer look

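In 5 members the melatonin difference at 3 and 5 h differed from that at 0 and 1 h by the limma test of that difference, with values of -1.52 for Trim30a, -1.24 for Oas3, -1.13 for Trim25, -1.09 for Parp12 and -0.79 log2 for Ifi35. In 11 cases a member was more than 0.1 log2 above its 0 h array in 1 arm and more than 0.1 below it in the other, a difference that was not tested since each arm has 1 array per time. Herc6 was 0.27 log2 above its 0 h array at 1 h with melatonin and 0.33 below it without. At 3 h with melatonin, changes below the 0 h array were -0.61 for Parp12, -0.51 for Dtx3l, -0.38 for Oas2, -0.34 for Ifi44, -0.33 for Oas3 and -0.26 for Oasl2. They were -0.17 for Ddx58 and for Bst2, -0.12 for Xaf1 and -0.11 for Parp9. Without melatonin all of these 10 were above 0 h at 3 h, between 0.34 (Bst2) and 2.75 (Oasl2). These values are of each gene's brightest probe. At 3 h with melatonin a dimmer probe was above 0 h for Ifi44 (1.77), Xaf1 (0.54), Parp12 (0.50), Parp9 (0.35), Ddx58 (0.05) and Dtx3l (0.02).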

How the results depend on the processing

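No paired analysis was possible because the conditions, with 1 array each, share no replicate numbers; the models hold LPS time as a term. Members called, in the order LPS at 1, 3 and 5 h, melatonin over all times, melatonin at 3 and 5 h, and late minus early melatonin, were 1, 16, 27, 4, 31 and 5. Without 1 array these ran from 0 to 3, 5 to 25, 7 to 31, 0 to 10, 26 to 34 and 0 to 28. With no filter they were 0, 9, 18, 1, 19 and 0, with no intensity trend 0, 9, 19, 2, 19 and 0, and under the treatment field's times 0, 0, 0, 1, 16 and 0. Over all times the count was 2 with quantile normalization, the deposited table or the common floor, and 10 with the 6 LPS arrays. Late minus early it was 1 with quantile normalization or the deposited table, 3 with the mean of probes and 12 among genes above background on all 8 arrays. Members at least 1 log2 lower with melatonin at 5 h were 12, or 29 under the treatment field's times. The other counts of single-array values stayed within 1.5 times where they had a value. Those of the melatonin arm against 0 h have none under the treatment field's times, which leave no 0 h array with melatonin.

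Signs turned for the 3 h change of Bst2 (-0.14 with quantile normalization, -0.11 in the deposited table) and, among the pathway genes, of Tlr4 (-0.67 at 3 h and -0.34 at 5 h with the mean of probes). Without 1 array the 3 h change ran from -0.10 to 0.27 for Bst2, -0.45 to 1.09 for Dtx3l, -0.24 to 0.75 for Ifi44, -0.24 to 0.96 for Oas2, -0.12 to 0.78 for Oas3 and -0.42 to 0.50 for Parp12. The melatonin difference at 3 and 5 h ran from -2.48 to 0.32 for Mx1, -1.72 to 0.35 for Mx2 and -1.81 to 0.17 for Trim21. Causes were not tested. Of 527 comparisons of the 31 melatonin calls at 3 and 5 h with an alternative, 463 kept the call, 64 lost it and 0 changed sign.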
